A study of Mus musculus with 18 samples.

Results

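The 36 genes described here encode lysosomal proteases, glycosidases, lipid-handling proteins and membrane proteins, together with the transcription factors Tfeb and Tfe3. They were taken by name from a list, not by a threshold on a measured value, but the list was drawn up with earlier results of these data known. All 36 were found among the 40327 genes of the 129 count tables and the 39147 genes of the Cast count tables. The samples were CD23+ B cells from the spleens of female F1 mice of 129S1 and Cast, with genotype Xist+/-. The series holds 18 samples, and the 6 used were 3 naive samples with no treatment and 3 samples treated in vitro with 1 µM CpG for 24 h. CpG oligonucleotides, short DNAs with unmethylated CG pairs, stimulate B cells by way of Toll-like receptor 9. Per the labels, X inactivation was skewed so that the Cast X was the silent copy, in naive and treated samples alike. Neither the age, nor the number of mice behind a sample, nor whether equal replicate numbers share a mouse is given, so p-values measure the spread between these samples, which may be technical.

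Lysosomes are acidic organelles in which hydrolases break down proteins, sugar chains and lipids delivered by endocytosis and autophagy. In B cells the same compartment cuts internalised antigen and the invariant chain into peptides for MHC class II, and Toll-like receptor 9 meets its DNA ligand there. TFEB and TFE3 are basic helix-loop-helix factors that bind the E-box CACGTG near the start of many lysosomal genes, while macrophages, which digest engulfed material, are among the cell types richest in lysosomal RNA.

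RefSeq promoter windows of build GRCm38.p6, each 300 bases long from 250 before to 50 after a start site, were at hand for 33 of the 36 members. Those of Ctsh, Npc1 and Asah1 were not used here. The E-box CACGTG, whose reverse complement is itself, was searched for in each window. It was found for 10 members (30.3%), namely Ctsa, Ctsd, Ctsl, Lgmn, Gaa, Gla, Glb1, Naglu, Lamp1 and Mcoln1, against 8.09% of the 27025 genes with a window. The stretches below are shown because their genes range from deep falls after CpG to no call on either allele. Each is printed 5′ to 3′ on the gene's own strand, lies wholly upstream of the start site, and has CACGTG in capitals.
Lamp1, chr8:13159086-13159155, + strand: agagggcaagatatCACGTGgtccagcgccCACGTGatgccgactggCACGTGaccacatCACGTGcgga
Ctsd, chr7:142387903-142387947, − strand: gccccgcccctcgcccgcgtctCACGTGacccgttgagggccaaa
Lgmn, chr12:102439118-102439162, − strand: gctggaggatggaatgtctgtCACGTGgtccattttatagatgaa
Mcoln1, chr8:3500434-3500488, + strand: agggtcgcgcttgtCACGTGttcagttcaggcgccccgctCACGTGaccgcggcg
Gaa, chr11:119267803-119267847, + strand: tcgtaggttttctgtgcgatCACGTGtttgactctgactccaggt
Lamp1 held 4 copies, a number that 0.0244% of the 32851 windows reach. On the 129 allele the median log2 fold change after CpG was -0.55 for the 8 tested members with the E-box and -1.05 for the 22 without. For Cast it was -1.13 for the 9 with it and -1.13 for the 19 without. Ctsd and Lgmn, each with the E-box, were among the members with the deepest falls, and Gaa was called on neither allele. A match describes these letters and does not show that a factor binds there.

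Each sample had a table of read counts for the 129 allele, with 1987266 to 2928236 gene reads, and a table for the Cast allele, with 2465073 to 3321753. Levels are given as CPM, gene reads scaled to a common library size with TMM factors and not divided by gene length. Where a gene has a pair of log2 fold changes, the first is that of the 129 allele. B cell markers were present in every sample and summed to between 7402 and 12017 CPM in naive samples over both kinds of table. All 10 of them tested for the 129 allele and all 9 for Cast fell after CpG, where 27% and 31.5% of all genes tested were called lower. Fcer2a, which encodes CD23, fell (log2 fold changes -5.22 and -4.43). The naive samples also held 20 macrophage marker genes at 4039 to 8371 CPM in the 129 tables and 3213 to 6970 CPM in those for Cast. In the CpG samples the same markers summed to 30.7 to 38.9 CPM and 26.1 to 36.1 CPM. Naive replicate 1 stood apart with the highest macrophage sum in both kinds of table, 2.07 and 2.17 times that of naive replicate 2. In bulk samples, fewer cells of a type and less RNA per cell cannot be told apart.

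Most lysosomal genes were lower after CpG on both alleles. For the 129 allele, 33 members passed the filter on low counts, and edgeR's quasi-likelihood test called 22 lower and 2 higher at a Benjamini-Hochberg adjusted p of 0.05. Over all 10581 genes tested there, 27% were called lower and 28.2% higher. For the Cast allele, 31 members passed the filter, with 26 called lower and 2 higher, against 31.5% lower and 30.7% higher of 10365 genes. With the reads of both alleles summed, 28 members were lower and 2 higher, against 34.4% and 34.2% of 10343 genes. The median log2 fold change of the members was -1.04 on the 129 allele and -1.10 on the Cast allele, while that of all genes tested was -0.01 and -0.04. Lower levels without overlap between the groups were seen for 25 of 33 members on the 129 allele and 26 of 31 on the Cast allele, against 32.1% and 34.7% of all genes tested.

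Read by gene, 21 members fell on both alleles and Gusb rose on both. Ctsz rose on the 129 allele alone and Grn on the Cast allele alone, and no member was called in opposite directions. Ids was called lower on the 129 allele and could not be tested on the other. Glb1, Manba, Ppt1, Mcoln1 and Ctsl were called lower on the Cast allele alone, Ctsl being untested on the 129 allele. Gaa, Smpd1, Lamp2 and Tfe3 were called on neither allele, and Gla and Cd63 had at most 2 reads in any table and were not tested. A call on 1 allele alone is not a difference between alleles, which is tested further on.

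**Figure D1:**
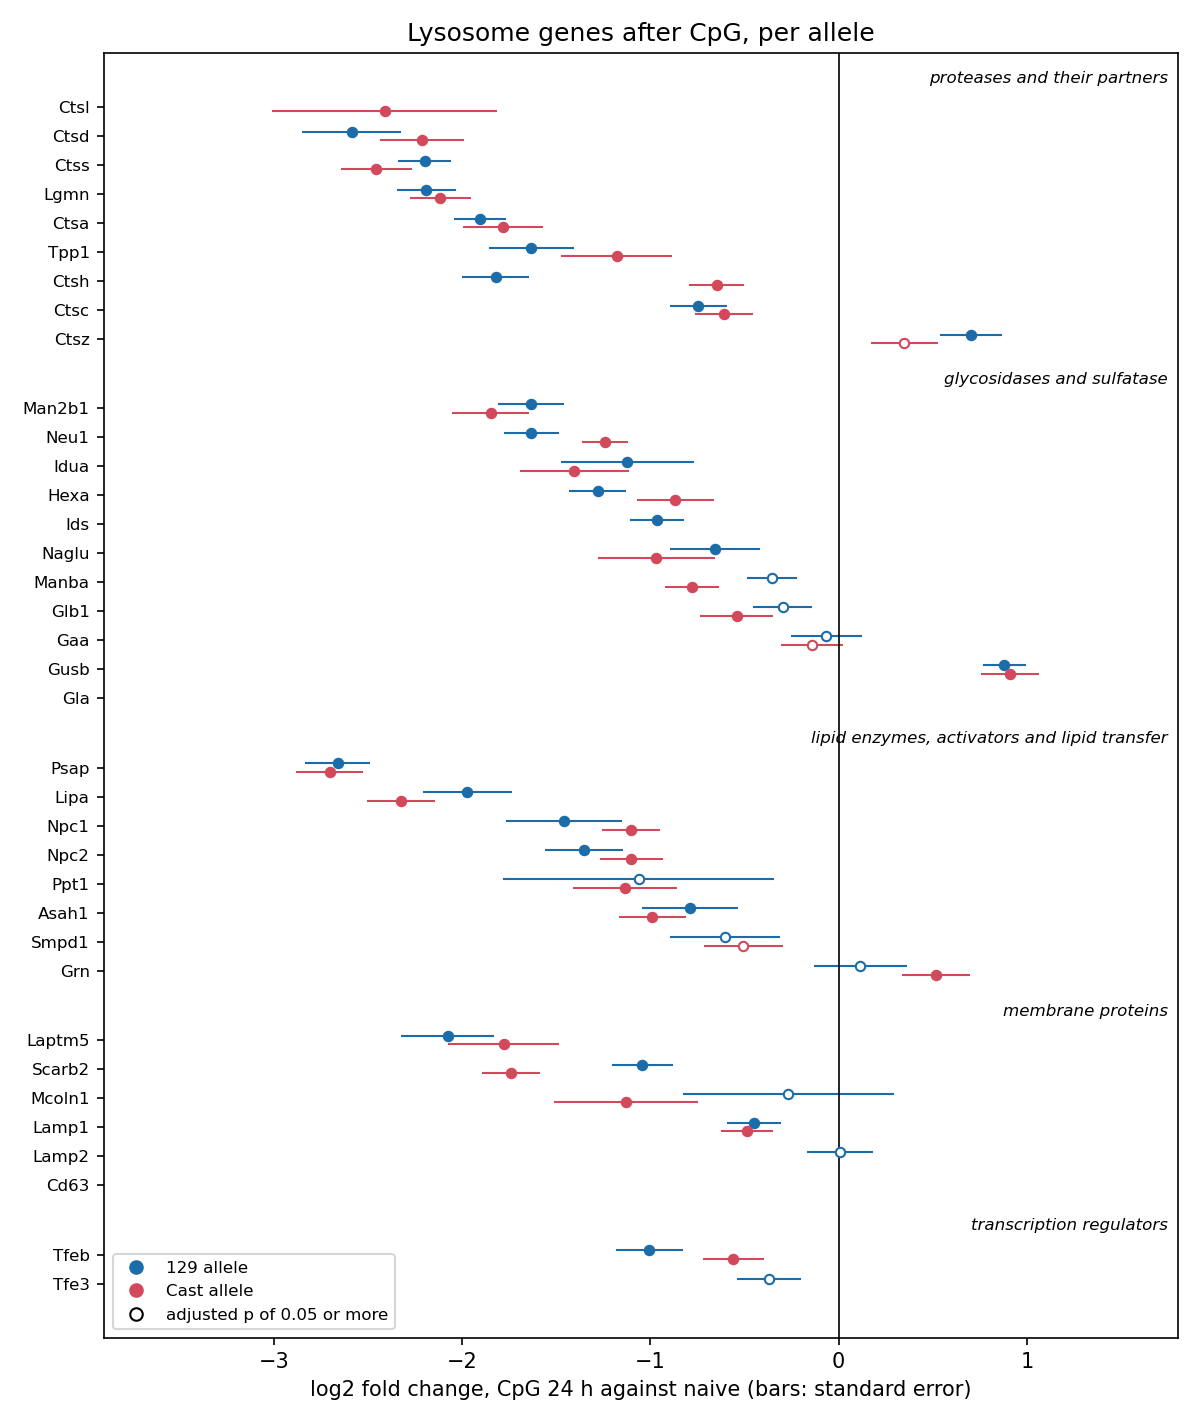
Log2 fold change of each lysosomal gene, CpG for 24 h against naive, on the 129 allele (blue) and the Cast allele (red), with the standard error as a bar and members grouped by role. Filled points passed an adjusted p of 0.05 in edgeR and open points did not. Most points lie left of 0, from -2.70 for Psap to 0.91 for Gusb, both on the Cast allele, and Gla and Cd63 have no point.

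The summed reads of the 36 genes were lower in every CpG sample than in any naive sample. In the 129 tables they came to 8885, 7058 and 7452 CPM in naive replicates 1, 2 and 3 and to 2475, 2741 and 2697 CPM after CpG, which is 33.8% of the naive mean. In the Cast tables the sums were 8391, 6294 and 6240 CPM and then 2479, 2580 and 2401 CPM, or 35.6%. Psap alone gave 27.8% of the naive 129 sum. Without it 40.7% remained for the 129 allele and 42.4% for Cast. With a minimum log2 fold change of 1 put into the test itself, 11 members were called on each allele, all lower, against 11.8% of all genes called lower on the 129 allele and 13.7% on the Cast allele. Of these, 9 passed on both alleles (Ctsa, Ctsd, Ctss, Lgmn, Man2b1, Neu1, Psap, Lipa and Laptm5), and 4 passed on 1 allele (Ctsh, Tpp1, Ctsl and Scarb2).

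Among the 9 proteases and their partners, 7 of 8 tested fell and 1 rose on the 129 allele, and 8 of 9 fell on the Cast allele. Of all genes tested, 27% (129) and 31.5% (Cast) fell, shares that stand beside this and each later count by role. Summed, the 9 genes dropped from 3176, 2649 and 2930 CPM to 767, 843 and 929 CPM in the 129 tables. Ctsd encodes cathepsin D, the main aspartic protease of the lysosome. Its 129 level was 653, 316 and 436 CPM in naive samples and 79.7, 73.7 and 81.2 CPM after CpG, with a change of -2.59 on the log2 scale (SE 0.26, edgeR adjusted p = 0.000214). Its Cast level was 269, 150.5 and 173 CPM before and 45.2, 38.1 and 44.8 CPM after, a change of -2.21 (SE 0.22, edgeR adjusted p = 2.93e-05). The groups were far apart on both alleles, and naive replicate 1 was the highest sample on each.

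Ctss and Lgmn, which act on antigen and invariant chain in antigen-presenting cells, fell to about the same depth. Ctss, a cysteine protease that trims the invariant chain, went from 639.9, 548 and 656 CPM to 118, 153 and 132 CPM on the 129 allele (log2 fold change -2.20, SE 0.14, edgeR adjusted p = 2.39e-05). Its Cast level went from 511, 474 and 492 CPM to 74.3, 119 and 76.9 CPM (-2.45, SE 0.19, edgeR adjusted p = 5.65e-06). Its naive samples lay close together, unlike those of Ctsd. Lgmn, the asparaginyl endopeptidase legumain, went from 526 ± 95 to 115 ± 9.32 CPM (SD, n = 3) on the 129 allele and from 425 ± 82.5 to 98.3 ± 9.20 CPM on the Cast allele. Ctsa, the carboxypeptidase that also protects β-galactosidase and neuraminidase, fell (log2 fold changes -1.90 and -1.78). Tpp1, a tripeptidyl peptidase, fell (log2 fold changes -1.63 and -1.18), and Ctsc, a dipeptidyl peptidase that activates granule proteases, fell (log2 fold changes -0.74 and -0.61).

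Ctsl, an endopeptidase of the cathepsin L type, rests on few reads. Its Cast reads were 147, 28 and 107 in naive samples and 23, 11 and 34 after CpG, or -2.41 on the log2 scale (SE 0.60, edgeR adjusted p = 0.00637). Naive replicate 2 was well below the other naive samples and, in CPM, level with CpG replicate 3. Its 129 reads were 5, 16 and 3 before and 0, 20 and 0 after, too few to pass the filter, and most lay in the samples numbered 2. Without the filter on low counts the Cast call of Ctsl was lost (edgeR adjusted p = 0.0957).

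Ctsz, the carboxypeptidase cathepsin Z, moved the other way. Its 129 level rose from 72.5, 62.6 and 76.1 CPM to 116, 94.8 and 134 CPM (log2 fold change 0.70, SE 0.16, edgeR adjusted p = 0.00823), with no overlap. On the Cast allele 52.8, 38.0 and 41.0 CPM stood against 64.3, 50.3 and 53.6 CPM, and the groups overlapped (0.35, SE 0.18, edgeR adjusted p = 0.115). That value passed when the replicate number was a block (edgeR adjusted p = 0.0488) or when naive replicate 1 was left out (edgeR adjusted p = 0.0397).

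**Figure D2:**
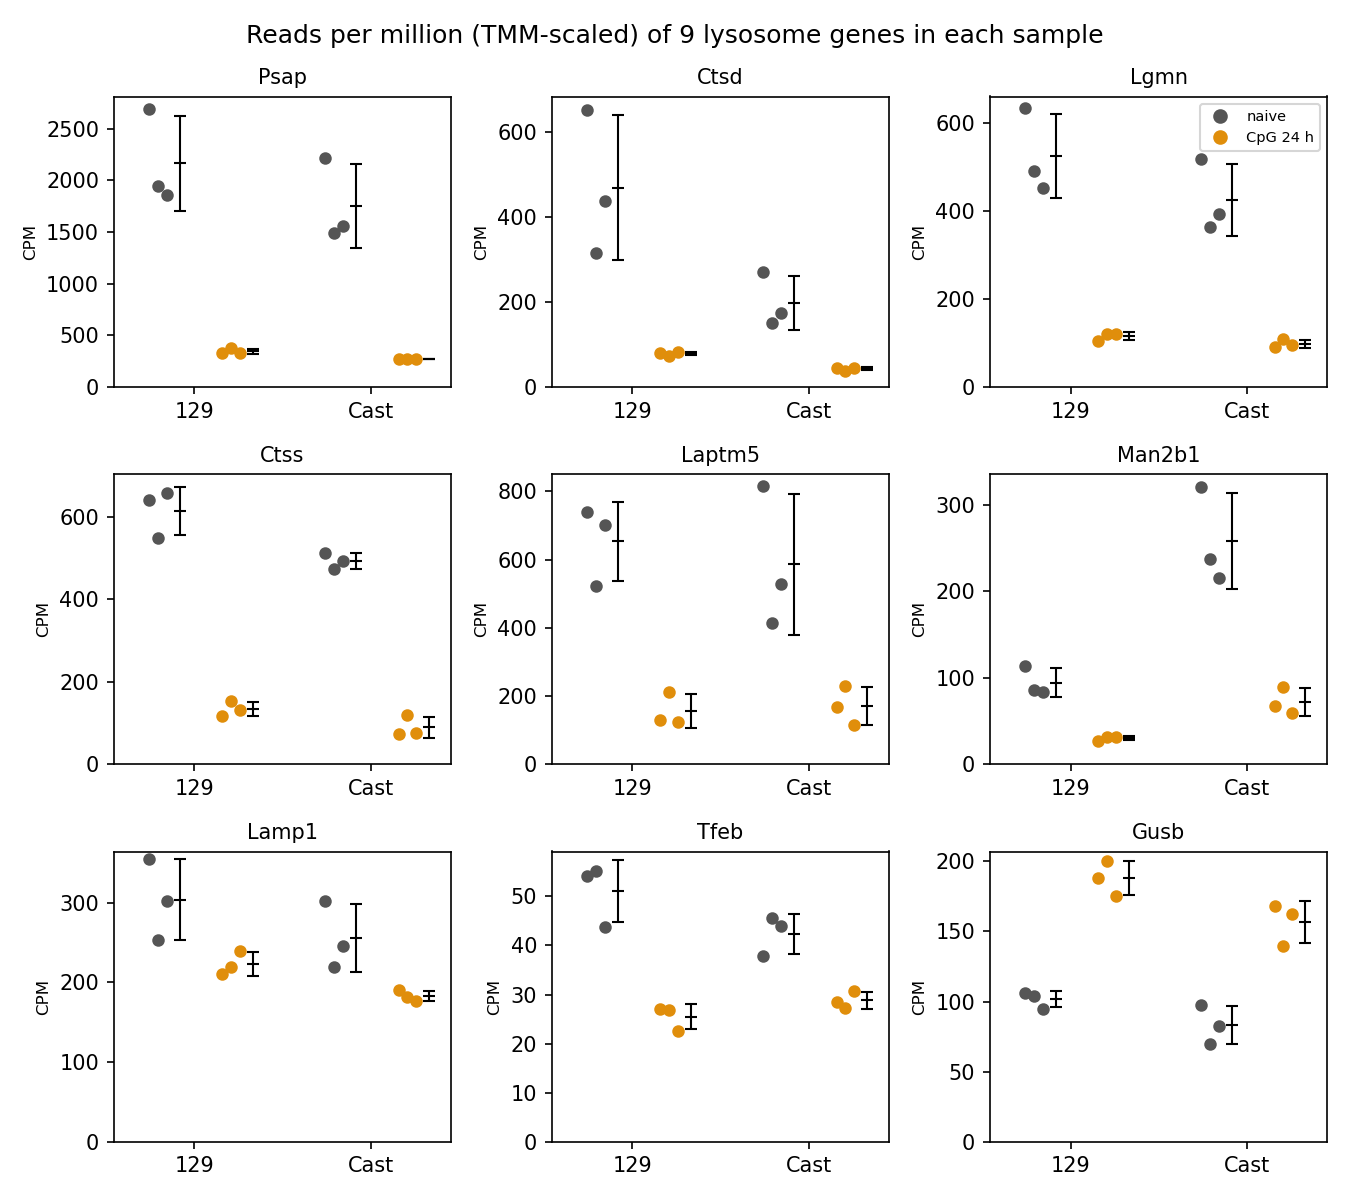
CPM of 9 lysosomal genes in each of the 6 samples, naive in grey and CpG 24 h in orange, for the 129 and the Cast tables, with the mean and SD of 3 samples as a bar beside the points. Each vertical axis starts at 0. Psap, Ctsd, Lgmn, Ctss, Laptm5 and Man2b1 separate widely, Lamp1 narrowly, and Gusb is higher after CpG.

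Of the 11 genes for glycosidases and a sulfatase, 6 of 10 tested fell on the 129 allele and 7 of 9 on the Cast allele, with Gusb the single rise on each. Man2b1 encodes the lysosomal α-mannosidase of glycoprotein breakdown. It went from 114, 85.7 and 84.0 CPM to 27.5, 32.1 and 32.3 CPM on the 129 allele (log2 fold change -1.63, SE 0.18, edgeR adjusted p = 0.000203). Its Cast level went from 321, 238 and 216 CPM to 67.1, 89.6 and 58.9 CPM (-1.85, SE 0.20, edgeR adjusted p = 5.06e-05). Every naive sample was above every CpG sample on both alleles.

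Gusb, β-glucuronidase, rose by nearly the same factor on both alleles. Its 129 level was 106, 104 and 95 CPM in naive samples and 188, 200.2 and 176 CPM after CpG, a rise of 0.88 on the log2 scale (SE 0.11, edgeR adjusted p = 0.000474). Its Cast level was 97.3, 69.9 and 82.3 CPM and then 168, 139 and 162 CPM, a change of 0.91 (SE 0.15, edgeR adjusted p = 0.000662). The groups did not overlap. Gusb is also a common reference gene in quantitative PCR.

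Neu1, the lysosomal sialidase, fell (log2 fold changes -1.63 and -1.24), as did Hexa, the α subunit of β-hexosaminidase (-1.28 and -0.87). Idua, α-L-iduronidase, fell (log2 fold changes -1.12 and -1.40), and its 129 call was lost in 4 of the 6 fits that each left out a sample (edgeR adjusted p from 0.0778 to 0.0961). Naglu, an enzyme of heparan sulfate breakdown, fell by 0.66 on the 129 allele with an edgeR adjusted p of 0.0497, just under the threshold, and by 0.97 on the Cast allele (edgeR adjusted p = 0.0215). With DESeq2 the 129 adjusted p of Naglu was 0.0910, and without the filter on low counts it was 0.0802 (edgeR). The 129 call was lost in 5 of those 6 fits and the Cast call in 3, with edgeR adjusted p up to 0.133 and 0.0931.

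Manba, the lysosomal β-mannosidase, was at 155 ± 11.9 CPM before and 122 ± 14.8 CPM after CpG on the 129 allele (SD, n = 3, edgeR adjusted p = 0.0537, and 0.0260 with the replicate block). The Cast level fell from 148 ± 14.5 to 86.6 ± 11.5 CPM, by 0.78 on the log2 scale (SE 0.14, edgeR adjusted p = 0.00113). Without CpG replicate 3 the 129 value passed as well (edgeR adjusted p = 0.0395). Glb1, β-galactosidase, was at -0.30 on the log2 scale for 129 (SE 0.16, edgeR adjusted p = 0.147) and at -0.54 for Cast (SE 0.19, edgeR adjusted p = 0.0338). In 4 of the 6 fits without a sample the Cast call of Glb1 was lost (edgeR adjusted p from 0.0864 to 0.135), and with DESeq2 its adjusted p was 0.0910. Upper-quartile factors brought the 129 value of Glb1 to an edgeR adjusted p of 0.0446. Gaa, the acid α-glucosidase that degrades glycogen, was at 73.8 ± 15.9 and 70.8 ± 9.14 CPM on the 129 allele and at 56.2 ± 5.92 and 51.1 ± 7.50 CPM on the Cast allele (SD, n = 3). The groups overlapped on both alleles, with edgeR adjusted p of 0.794 and 0.470.

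All 8 genes of lipid breakdown and transfer were tested on each allele, and 5 fell on the 129 allele while 6 fell and 1 rose on the Cast allele. Psap encodes prosaposin, the precursor of the saposins that present sphingolipids to their hydrolases, and it had the deepest fall of all members. Its 129 level dropped from 2692, 1945 and 1857 CPM to 328, 372 and 329 CPM (log2 fold change -2.66, SE 0.17, edgeR adjusted p = 2.52e-05). Its Cast level dropped from 2216, 1486 and 1556 CPM to 267, 274 and 269 CPM (-2.70, SE 0.18, edgeR adjusted p = 2.60e-06). Every naive sample stood far above every CpG sample, and naive replicate 1 was the highest on both alleles.

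Lipa, the acid lipase that frees cholesterol and fatty acids, went from 334, 273 and 177 CPM to 75.0, 64.2 and 61.4 CPM on the 129 allele (log2 fold change -1.97, SE 0.24, edgeR adjusted p = 0.000379). Its Cast level went from 816, 689.6 and 518 CPM to 145, 124 and 136 CPM (-2.32, SE 0.18, edgeR adjusted p = 5.73e-06). Npc1 and Npc2, which hand the freed cholesterol out of the lysosome, fell together, with -1.46 and -1.35 on the 129 allele and -1.10 each on the Cast allele. Asah1, acid ceramidase, fell (log2 fold changes -0.79 and -0.99), its 129 call being lost in 4 of the 6 fits that left out a sample (edgeR adjusted p from 0.0533 to 0.103). Smpd1, acid sphingomyelinase, had log2 fold changes of -0.60 and -0.51, with edgeR adjusted p of 0.117 and 0.0601. With the replicate block the 129 value of Smpd1 passed (edgeR adjusted p = 0.0228), as it did without CpG replicate 2 (edgeR adjusted p = 0.0247), and the Cast value passed with upper-quartile factors (edgeR adjusted p = 0.0244).

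Ppt1, the thioesterase that removes palmitate from proteins, fell on the Cast allele from 177, 105 and 110.1 CPM to 81.2, 40.5 and 57.7 CPM (log2 fold change -1.13, SE 0.28, edgeR adjusted p = 0.00596). On the 129 allele its level was 17.5, 88.6 and 115 CPM before and 17.9, 41.6 and 46.5 CPM after (-1.06, SE 0.72, edgeR adjusted p = 0.259). The samples numbered 1 were both low there. With the replicate block the 129 value passed (edgeR adjusted p = 0.00303), and without naive replicate 1 it was -1.53 (edgeR adjusted p = 0.0251). Grn encodes progranulin, which lysosomal proteases cut into granulins. It rose on the Cast allele from 77.5, 60.2 and 59.3 CPM to 73.7, 105 and 104 CPM (0.52, SE 0.18, edgeR adjusted p = 0.0311), although CpG replicate 1 lay below naive replicate 1. This call was lost in 4 of the 6 fits without a sample (edgeR adjusted p from 0.0755 to 0.0866) and with upper-quartile factors (0.0842). On the 129 allele Grn had 58.3 ± 15.5 and 63.4 ± 13.9 CPM (SD, n = 3, edgeR adjusted p = 0.713).

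Of the 6 membrane protein genes, 3 of 5 tested fell on the 129 allele and all 4 tested fell on the Cast allele. Laptm5, a lysosomal membrane protein of blood cells that lowers surface antigen receptors, went from 738, 523 and 700.4 CPM to 129, 213 and 125 CPM on the 129 allele (log2 fold change -2.08, SE 0.25, edgeR adjusted p = 0.000417). Its Cast level went from 816, 416 and 528 CPM to 168, 229.6 and 116 CPM (-1.78, SE 0.30, edgeR adjusted p = 0.000663). In both kinds of table CpG replicate 2 was the highest of the treated samples. Scarb2, the receptor that carries β-glucocerebrosidase to the lysosome, fell (log2 fold changes -1.04 and -1.74).

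Lamp1, a widely used marker of the lysosomal membrane, was at 355, 254 and 302 CPM before and 210.1, 220.0 and 239 CPM after CpG on the 129 allele. Its log2 fold change there was -0.45 (SE 0.14, edgeR adjusted p = 0.0305), and on the Cast allele it was -0.49 (SE 0.14, edgeR adjusted p = 0.0131). The groups did not overlap, but the 129 call was lost in 5 of the 6 fits without a sample (edgeR adjusted p from 0.0557 to 0.101) and the Cast call in 2 (0.0587 and 0.0756). Mcoln1, the calcium channel mucolipin 1, fell on the Cast allele by 1.13 (SE 0.38, edgeR adjusted p = 0.0274) on 47, 57 and 27 naive reads and 16, 19 and 40 reads after CpG. Its Cast call was lost in 4 of the 6 fits (edgeR adjusted p from 0.0785 to 0.10). With 5 to 24 reads per sample on the 129 allele, Mcoln1 was at -0.27 (SE 0.56, edgeR adjusted p = 0.71). Cd63, a tetraspanin of late endosomes, had 0 reads in all Cast tables and at most 2 in a 129 table, too few to be tested.

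Tfeb fell on both alleles. The 129 level went from 54.2, 55.2 and 43.7 CPM to 27.2, 26.8 and 22.6 CPM (log2 fold change -1, SE 0.18, edgeR adjusted p = 0.00228). Its Cast level went from 37.8, 45.5 and 43.9 CPM to 28.5, 27.3 and 30.6 CPM (-0.56, SE 0.16, edgeR adjusted p = 0.0138). No sample overlapped between the groups, and without naive replicate 2 the Cast adjusted p of Tfeb was 0.0579, and without the filter on low counts 0.0569 (edgeR). Tfe3, its X-linked relative, stood at 50.8, 47.8 and 47.2 CPM before and 33.2, 35.6 and 44.4 CPM after CpG on the 129 allele (-0.37, SE 0.17, edgeR adjusted p = 0.102). Those groups did not overlap either, although the test called Tfe3 only with upper-quartile factors (edgeR adjusted p = 0.0365).

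The X-linked members are Lamp2, Gla, Ids and Tfe3, and on the inactive Cast X they gave few reads. Lamp2, the second large glycoprotein of the lysosomal membrane, had 120, 161 and 108 naive reads and 151, 190 and 149 reads after CpG on the active 129 allele. Its level there was 57.1 ± 8.13 CPM before and 57.5 ± 8.25 CPM after (SD, n = 3), a difference of 0.01 on the log2 scale (SE 0.17, edgeR adjusted p = 0.974). Ids, iduronate-2-sulfatase, fell on the active allele from 87.0, 74.6 and 80.0 CPM to 37.2, 42.3 and 44.8 CPM (-0.96, SE 0.14, edgeR adjusted p = 0.000988). Gla, α-galactosidase A, had 2 reads in 1 naive sample of the 129 tables and no read anywhere else.

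From the inactive Cast X, Lamp2 gave 10, 2 and 2 reads in naive samples and 7, 10 and 8 after CpG. Its Cast share, the Cast reads over the reads of both alleles, in naive replicates 1, 2 and 3 was 7.69%, 1.23% and 1.82%, with Wilson intervals at the 95% level of 4.23 to 13.6, 0.337 to 4.36 and 0.5 to 6.39. After CpG it was 4.43% (2.16 to 8.86), 5% (2.74 to 8.96) and 5.10% (2.60 to 9.73). Naive replicate 1 lay above the CpG samples and the other two naive samples below them, so the groups overlapped (means 3.58% and 4.84%, two-sided exact permutation p = 0.5). Ids gave 5, 0 and 6 Cast reads before and 6, 5 and 0 after, with mean shares of 2.00% ± 1.83 and 3.15% ± 2.82 (SD, n = 3, exact permutation p = 0.6). Its 0 reads allow a Cast share of up to 1.66% in naive replicate 2 and 2.33% in CpG replicate 3. Tfe3 gave 2 to 4 Cast reads before and 3 to 6 after, with mean shares of 2.35% and 3.92% (exact permutation p = 0.3). With 3 against 3 samples no p in these tests can go below 0.1. Over all matched X-linked genes except Xist the share was 5.68%, 6.43% and 7.69% in naive samples and 9.58%, 8.99% and 9.11% after CpG, with no overlap. Taking X-linked genes singly, the 143 that reached 50 reads in every sample had a median share of 3.00%, and autosomal genes together ran from 51.9% to 53.6%.

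In the authors' deposited table of 104 X-linked genes Lamp2 is the only member. The authors' deposited table lists its diploid mean RPKM as 6.22 (naive) and 6.23 (stimulated). For Lamp2 the inactive-to-active X ratio in the authors' deposited table was 0.0304 and then 0.0449. These are means with no error.

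Whether CpG moved the balance of the alleles was tested on the log2 ratio of Cast to 129 reads, in a model with a term for each sample. Of 34 members tested, 0 passed an adjusted p of 0.05, where 0.945% of 10051 genes did. At an unadjusted p under 0.05 there were 6, Ctsd, Ctsh, Manba, Neu1, Lipa and Scarb2, where 11.6% of genes were under it. Ctsh came nearest, at 1.20 on the log2 scale toward Cast (SE 0.20, edgeR adjusted p = 0.0612). When the replicate number was added as a block, 5 members passed, where 7.69% of genes did. Ctsh and Laptm5 moved toward Cast, as did 3.92% of genes, and Scarb2, Lipa and Manba toward 129, as did 3.77%.

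Ctsh encodes cathepsin H, a cysteine protease with aminopeptidase activity. Its Cast share was 47.5%, 48.3% and 38.4% in naive samples and 69.4%, 64.7% and 60.8% after CpG, on 1427 to 3337 reads per sample. Each CpG sample was above each naive sample, and the means rose by 20.2 percentage points (two-sided exact permutation p = 0.1, the smallest possible, 0.425 when adjusted over 34 members). The 129 level of Ctsh dropped from 651, 711 and 796 CPM to 156, 225 and 232 CPM (log2 fold change -1.82, SE 0.18, edgeR adjusted p = 0.000127). The Cast allele dropped from 518, 577 and 427 CPM to 311, 358 and 305 CPM (-0.65, SE 0.15, edgeR adjusted p = 0.00358). The fall was the larger on the 129 allele in these values. With the replicate block the ratio change was 1.20 (edgeR adjusted p = 2.34e-17, and 0.0612 without the block). The blocked fit leaves little spread to measure for a single gene, so the smaller p rests mostly on spread pooled over all genes. It also rests on a pairing found in these data.

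Scarb2 moved the other way, from Cast shares of 56.9%, 62.1% and 56.3% to 44.8%, 50.7% and 42.7% (exact permutation p = 0.1). Lipa went from 73.6%, 74.4% and 77.3% to 68.7%, 69.0% and 72.3%, again with no overlap. Manba went from 52.3%, 54.1% and 50.8% to 47.9%, 48.7% and 38.9%. For Laptm5 the naive shares of 55.7%, 47.8% and 46.7% overlapped those after CpG, 59.8%, 55.4% and 52.3% (exact permutation p = 0.3). Across the 34 members with a share in each sample, 8 had groups that did not overlap. That is near the 21% of autosomal genes with at least 50 reads in each sample. The 34 also include X-linked members, where the share of genes was 13.3%, and members with fewer reads.

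**Figure D3:**
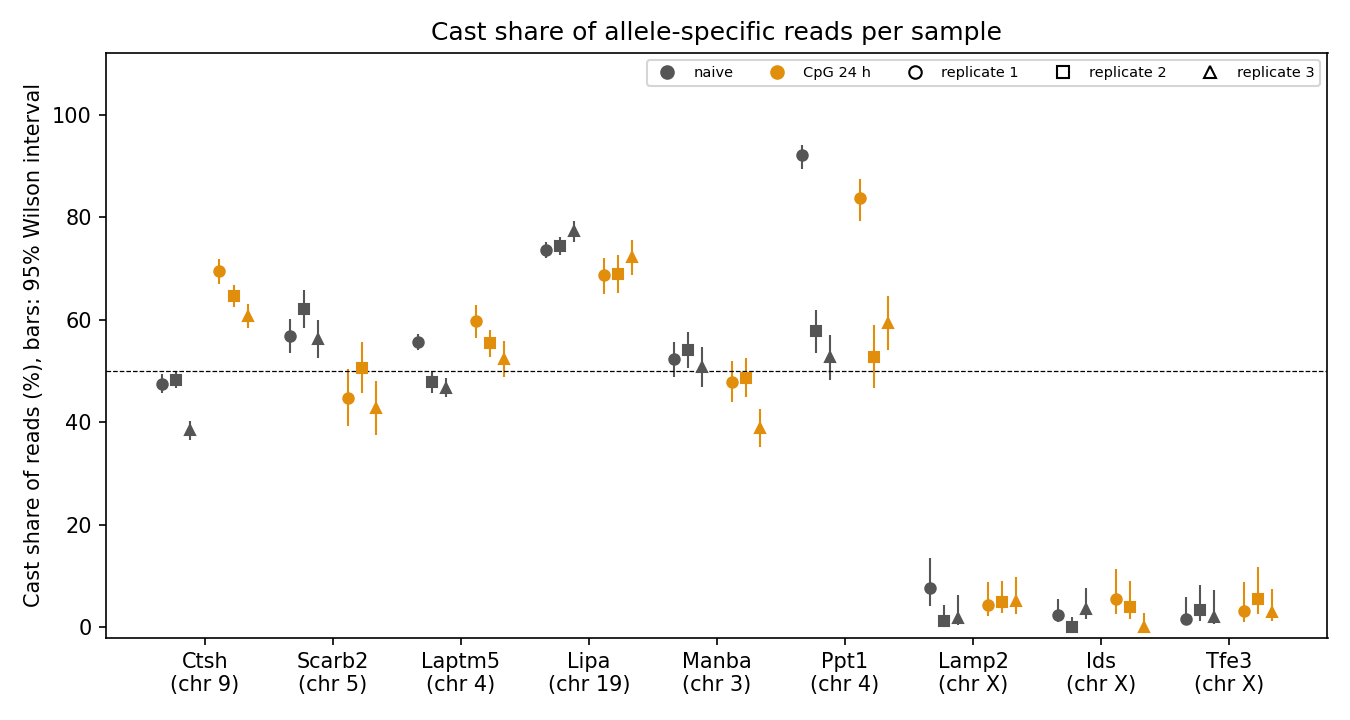
Cast share of the reads of 9 lysosomal genes in each sample, naive in grey and CpG 24 h in orange, with replicates 1, 2 and 3 as circles, squares and triangles and 95% Wilson intervals as bars. The dashed line marks 50%. Ctsh rises by 20.2 percentage points, Scarb2, Lipa and Manba move down, Ppt1 is high in both samples numbered 1, and the X-linked Lamp2, Ids and Tfe3 stay below 10%.

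Several autosomal members leaned to Cast in all 6 samples, with or without CpG. Mean Cast shares were 79.8% for Npc1, 74.2% for Man2b1, 73.4% for Asah1 and 72.5% for Lipa, where 8.44% of 6494 autosomal genes with at least 50 reads in each sample exceeded 70%. The lowest single value among these 4 genes was 68.3%, in CpG replicate 3 for Man2b1. Of the 32 autosomal members, among which Cd63 had too few reads for a mean share, 7 had a mean share outside 35% to 65%. Of the 6494 autosomal genes 18.0% did. Ctsl and Mcoln1 are among the 7 but had fewer than 50 reads in some samples. With the same minimum of 50 reads, the members' share was close to that of the autosomal genes. The lowest mean shares of autosomal members were 35.8% for Ctsd and 38.9% for Ctsz. Ppt1 differed by sample number: its share was 92.0% and 83.8% in naive and CpG replicates 1, and between 52.7% and 59.4% in the other 4 samples. Ctsl had shares of 96.7% to 100% except in the samples numbered 2, where they were 63.6% and 35.5%.

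The other genes of the pathway were taken from lists by role. Of all genes tested, 27% fell and 28.2% rose on the 129 allele, and 31.5% fell and 30.7% rose on the Cast allele. Of 31 further hydrolases, 16 of 25 tested fell and 1 rose on the 129 allele, and 20 of 27 fell and 3 rose on the Cast allele, with medians of -1.12 and -1.09. Acp5, tartrate-resistant acid phosphatase, fell (log2 fold changes -3.52 and -3.51), with 129 reads of 907, 364 and 665 in naive samples and 54, 120 and 41 after CpG. Its 129 call was lost with the replicate block (edgeR adjusted p = 0.0599). Acp2, lysosomal acid phosphatase, fell (log2 fold changes -3.63 and -3.24), as did Arsg, an arylsulfatase (-3.57 and -3.22). Ctsf, cathepsin F, had 22, 10 and 13 Cast reads before CpG and 0 in all 3 samples after it, at least 6.33-fold lower against a floor of 3 reads per library.

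Among 28 other lysosomal membrane proteins and transporters, 11 of 22 tested fell on the 129 allele and 12 of 20 on the Cast allele, and 0 rose (medians -0.74 and -0.75). With the replicate block 1 of these genes rose on the 129 allele. Slc11a1, a metal transporter of phagocytes, went from 168, 85 and 114 reads to 6, 0 and 1 on the 129 allele. Slc15a4, a transporter needed for endosomal Toll-like receptor signalling, fell (log2 fold changes -2.11 and -2.09). Tpcn2, an ion channel of endolysosomes, fell (log2 fold changes -2.06 and -2.01). Lamp3 fell by 2.89 on the 129 allele and had at most 3 reads in any Cast table.

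The 17 genes of the V-ATPase, the proton pump that acidifies lysosomes, gave few calls beside the shares of all genes given above. On the 129 allele 1 of 16 tested rose and 2 fell, and on the Cast allele 2 of 15 rose and 2 fell, with medians of 0.05 and -0.00302. Atp6v1a, the catalytic subunit, rose from 81.7 ± 13.9 to 325 ± 15.8 CPM on the 129 allele and from 81.8 ± 5.62 to 308 ± 21.8 CPM on the Cast allele (SD, n = 3), by 1.99 and 1.91 on the log2 scale (edgeR adjusted p = 4.05e-05 and 2.29e-06). Atp6v1c1 rose by 0.93 on the Cast allele and was at 0.50 on the 129 allele (edgeR adjusted p = 0.467, and 0.00431 with the replicate block). Atp6v0b fell (log2 fold changes -1.03 and -1.32), as did Atp6v0d1 (-0.65 and -0.99). With the replicate block the genes of the V-ATPase that rose numbered 3 on the 129 allele and 4 on the Cast allele.

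Of 18 genes that sort proteins to the lysosome, 5 fell and 1 rose on the 129 allele, and 7 of 16 fell and 1 rose on the Cast allele (medians -0.17 and -0.39). The falls on the 129 allele were near the share of all genes, 27%. Sort1, the sorting receptor sortilin, had 281, 151 and 163 reads before and 15, 9 and 13 after CpG on the 129 allele, and 342, 173 and 226 before and 4, 3 and 2 after on the Cast allele. Gga2, an adaptor of the Golgi, fell (log2 fold changes -1.5 and -1.74), as did Vps11 (-0.78 and -0.75) and Ap3d1 (-0.49 and -0.62). Of 16 genes of the nutrient control of TFEB and TFE3, 4 of 14 fell and 2 rose on the 129 allele, and 4 of 11 fell and 1 rose on the Cast allele. These falls too were near the shares of all genes, 27% and 31.5%. Lamtor5, a subunit of the Ragulator complex, rose by 1.05 on each allele, while Flcn, the GTPase activator folliculin, fell (log2 fold changes -0.84 and -0.85) like its partner Fnip2 (-2.63 and -3.43). Tfec, a relative of Tfeb found mostly in myeloid cells, went from 68, 24 and 29 reads to 0 in all 3 CpG samples on the 129 allele, at least 16.8-fold lower. Both tested inhibitors of cysteine proteases were called on each allele: the secreted Cst3 fell (log2 fold changes -1.67 and -1.69), and the cytosolic Cstb rose by 0.59 and 0.62.

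The levels of macrophage genes moved in the same direction as the lysosomal genes, to a greater depth. None of the 36 members is in the list of 20 macrophage markers. Of those 20, 19 were tested and all 19 fell on each allele, and their summed CPM after CpG came to 0.624% (129) and 0.643% (Cast) of the naive mean. Of the defining markers, Cd163 was at 0 in all CpG samples of the 129 tables and C1qa in those of the Cast tables. C1qb, C1qc, Csf1r and Vcam1 had at most 2 reads in any CpG sample. Adgre1 kept 7 to 11 reads. Summed, the 8 defining markers, which also include Spic, kept 11 to 14 reads per CpG sample in the 129 tables and 15 to 19 in the Cast tables. The members' sum in the same CpG samples was 33.8% and 35.6% of its naive mean, and that of the B cell markers 35.3% and 33.5%. Taken gene by gene, the B cell markers fell further, with median log2 fold changes of -1.76 and -1.68 against -1.04 and -1.10 for the members. Of the markers of other cells, 3 of 4 tested dendritic cell genes fell on the 129 allele, and on the Cast allele 1 of 3 fell and 1 rose. The single tested gene of the neutrophil and monocyte list and that of the T and NK cell list fell on both alleles. Of 3 plasma cell genes 2 rose and 1 fell on both, and both erythroid genes tested on the 129 allele and the 1 on the Cast allele fell. The single endothelial and stromal gene tested was called on neither.

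The naive samples differed in their macrophage level, and the lysosomal genes followed that order in part. For the macrophage markers the median quotient of naive replicate 1 over naive replicate 2 was 2.14 (129) and 2.15 (Cast). For the members with at least 10 reads in each naive sample it was 1.16 (32 genes) and 1.20 (31 genes), for the B cell markers 0.871 and 0.799, and for all genes tested 1.00 in each. Over naive replicate 3 the median quotient of naive replicate 1 was 1.46 and 1.45 for the macrophage markers and 1.10 and 1.27 for the members. Between naive replicates 2 and 3 the summed macrophage markers had quotients of 0.819 and 0.696, and the summed members 0.947 and 1.01, so in the Cast tables the members were level where the markers were not. Naive replicate 1 was the highest naive sample for 19 of 32 members in the 129 tables and 24 of 31 in those for Cast, and for 31.8% and 31.4% of all genes. It was also the highest for 16 and 17 of the 19 macrophage markers and for 0 of the B cell markers. The median quotient was 1.20 for the 22 members called lower in the 129 tables and 1.08 for the other 10, and in those for Cast 1.19 for the 26 called lower and 1.29 for the other 5. For the members that fell over 4-fold it was 1.38 in the 129 tables (5 genes) and 1.46 in those for Cast (6 genes). In 80% and 100% of these genes naive replicate 1 was the highest naive sample. These falls are measured from the same naive samples, so a high naive replicate 1 also deepens them.

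Without naive replicate 1 the test called 19 members lower on the 129 allele and 22 on the Cast allele, against 22 and 26 with it. Leaving out each sample in turn gave 19 to 20 members lower on the 129 allele and 22 to 26 on the Cast allele. The log2 change of the summed CPM without naive replicate 1 was -1.46 on the 129 allele and -1.33 on the Cast allele, against -1.56 and -1.49 with it. What part of the members' fall came from macrophage RNA was not tested.

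**Figure D4:**
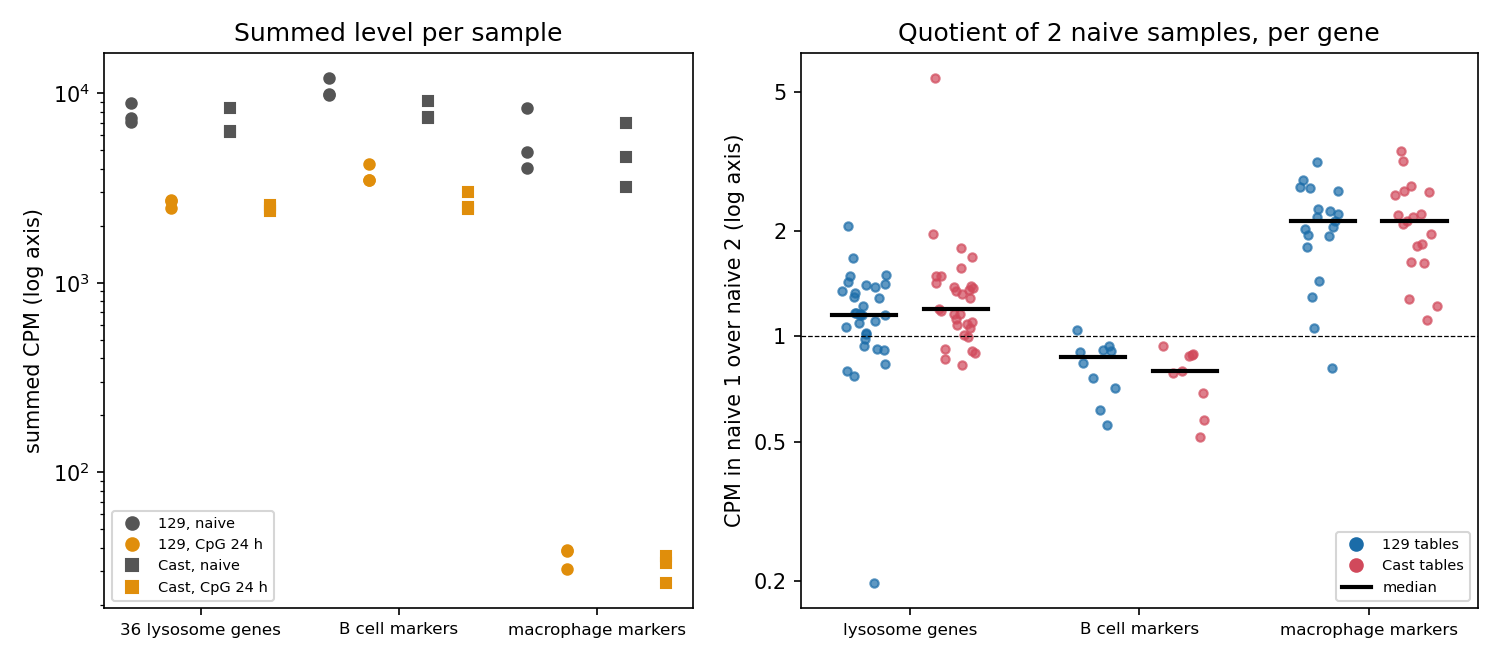
Left, summed CPM per sample on a log axis of the 36 lysosomal genes, the B cell markers and the macrophage markers, with the 129 tables as circles and the Cast tables as squares. Right, the quotient of naive replicate 1 over naive replicate 2 for each gene on a log axis, with the median as a bar. The macrophage markers drop to under 1% of their naive mean while the lysosomal genes and B cell markers keep between 33.5% and 35.6%, and the median quotient of the lysosomal genes (1.16 and 1.20) lies between those of the B cell markers (0.871 and 0.799) and the macrophage markers (2.14 and 2.15).

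Exons of Ctsa, Ctsd, Ctsl, Ctsz, Glb1, Idua, Lamp1, Npc1 and Ppt1 overlap those of other annotated genes, such as Cap1 for Ppt1 and Nelfcd for Ctsz on the opposite strand and Tmppe for Glb1 on the same strand. The kit marks strand, but whether the counting used it is not stated, so reads of these genes could not all be told apart from those of their neighbours.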

How the data were processed

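RNA-seq read counts per gene were deposited by the authors as 1 table for each allele and sample, 12 tables for the 6 samples used; 12 further samples of the series were not analysed here. The submitters' processing notes name STAR, featureCounts and Subread 2.0.0 and the build mm10; how reads were assigned to alleles is not given in the sources used here. The deposited table of RPKM, allele-specific signal and ratio means came from the authors and was used for Lamp2 only. Summary rows were left out, and reads in no gene made up 48.1 to 67.1% of aligned reads in the 129 tables and 44.5 to 62.1% in the Cast tables. Genes without a name were kept in the fits of each allele. They held 5.10 to 7.59% of gene reads in the 129 tables and 14.4 to 19.7% in the Cast tables. The allele ratio and the summed reads of both alleles left them out.

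Each allele was fitted with edgeR 4.0.16 in R 4.3.3 (TMM factors, filterByExpr, robust quasi-likelihood test, Benjamini-Hochberg adjustment over all genes tested, threshold 0.05). The allele ratio was fitted over genes matched by name between the strains, with a term for each sample. Shares have Wilson intervals, and a count of 0 was given a limit of 3 reads; neither covers more than counting error, because PCR copies of 1 molecule cannot be recognised here. Alternatives were the replicate block, DESeq2 1.42.0, other scalings, no filter, a minimum fold change, leaving out each sample and, chosen after seeing the data, both alleles' reads summed. In the replicate block alone, equal replicate numbers were taken as pairs. The reason was that deviations from the group means correlated at 0.560, 0.443 and 0.608 in the 129 tables and at 0.228, 0.163 and 0.246 in the Cast tables. The labels do not state a pairing, and the main fits and the permutation tests used none. On simulated counts the test recovered 19.6% of 2-fold and 79.6% of 4-fold changes on the 129 allele, and 50.5% and 93.7% on the Cast allele. The ratio test recovered 27.6% and 78.6%. False calls numbered 12 (129), 9 (Cast) and 8 (ratio). Few genes changed in the simulation, 97 by 2-fold and 93 by 4-fold among 10323 on the 129 allele. In the data 27% were called lower there and 28.2% higher, so these rates do not give the power in these data. Members, lists and markers were chosen with earlier results of these data known. Given in full were X-linked members, regulators, the called members with the largest rise and fall of each role, those called on 1 allele and those whose allele ratio passed; of each other list, up to 4 called genes with the largest mean change over both alleles. Ctsd, Ctss, Lamp1 and Gaa are not chosen by this rule and were given with their values already seen. Overlaps of exons came from GENCODE M21.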

Additional observations from a re-analysis of the deposited data

Results flagged for a closer look

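For 5 lysosomal genes the change of the allele balance with CpG passed the edgeR test when the replicate number was a block. In that fit 7.69% of 10051 genes passed, and 0 members passed without the block. Ctsh shifted toward Cast by 1.20 on the log2 scale and Laptm5 by 0.34. Scarb2 had a log2 ratio change of -0.72, Lipa of -0.37 and Manba of -0.42, all 3 toward 129. Each of these genes fell on the Cast allele, and the CpG and naive Cast shares did not overlap for Ctsh, Scarb2, Lipa and Manba.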

How the results depend on the processing

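The replicate block changed the calls of Manba, Smpd1 and Ppt1 on the 129 allele, of Ctsz on the Cast allele, of Grn with both alleles summed (edgeR adjusted p 0.0514 without the block and 0.0409 with it) and of the 5 allele ratios above, and no other call of a member in these fits; ratio calls rose from 95 to 773 genes, and from 0 to 5 members, 3 toward 129 and 2 toward Cast. A minimum log2 fold change of 1 left 2525 genes on the 129 allele and 2827 on the Cast allele, with 11 members called, 11 lower and 0 higher on each. Upper-quartile factors left 1 member higher on the Cast allele. Over X-linked genes alone 0 ratios were called. Leaving out 1 sample at a time gave, on the 129 allele, 5216 to 5477 genes and 21 to 22 members, 19 to 20 lower and 2 to 2 higher; on the Cast allele 5987 to 6319 genes and 23 to 27 members, 22 to 26 lower and 1 to 3 higher; with both alleles summed 6603 to 7067 genes and 27 to 29 members, 25 to 27 lower and 2 to 3 higher; and 14 to 26 ratio calls over all genes with 0 to 0 members. The share changes then ran from 17.0 to 22.3 points for Ctsh, 0.00495 to 2.73 for Ids, 0.0867 to 3.32 for Lamp2, 3.77 to 8.56 for Laptm5, -6.24 to -3.97 for Lipa, -9.03 to -4.11 for Manba, -14.7 to -10.5 for Scarb2 and 0.73 to 2.06 for Tfe3. Summed levels changed by -1.63 to -1.46 (129) and -1.56 to -1.33 (Cast) on the log2 scale for all members, -1.86 to -1.72 and -1.45 to -1.30 for proteases, -0.50 to -0.42 and -0.78 to -0.60 for glycosidases, -2.26 to -2 and -2.09 to -1.81 for lipid genes, -1.31 to -1.09 and -1.45 to -1.08 for membrane genes, -0.72 to -0.62 and -0.61 to -0.47 for regulators, and -7.53 to -6.96 and -7.51 to -6.95 for macrophage markers. Without the gene with the most reads they were -1.30 and -1.24 for all members, -1.76 for Cast proteases, -0.82 and -0.38 for glycosidases, -1.17 and -1.38 for lipid genes, -0.51 and -0.85 for membrane genes, -1.001 and 0.38 for regulators, the last resting on the few Cast reads of Tfe3, and -8.60 for macrophage markers in the 129 tables. On the 129 allele uncalled values changed sign for Gaa (0.13 without naive replicate 1, 0.032 without CpG replicate 2, lowest -0.17), Grn (-0.031 with upper-quartile factors, -0.054 without naive replicate 3, -0.045 without CpG replicate 2, highest 0.33), Lamp2 (-0.023 without TMM, -0.14 with upper-quartile factors, -0.063, -0.031 and -0.12 without naive replicates 1 and 3 and CpG replicate 2) and Mcoln1 (0.35 without naive replicate 1, lowest -0.68); the cause was not tested. DESeq2, no filter and upper-quartile factors moved the median of all genes to between -0.20 and -0.16. Few reads limit what can be said of Gla, Cd63 and the Cast copies of Lamp2, Ids and Tfe3; why they are few was not tested.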

Other observations

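The Cast share of Ppt1 was far from the other samples in both samples numbered 1, and that of Ctsl in both samples numbered 2. Of the 20 genes nearest to Ppt1, 5 also had both samples numbered 1 at least 10 percentage points apart from the other 4, against 4.58% of 6359 genes. Of the 20 nearest to Ctsl, 6 were apart in the samples numbered 2, against 2.06% of genes.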
